A study of Mus musculus with 12 samples.

Results

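Of 1915 mouse microRNA names counted in vesicles from mouse plasma, 9 belong to microRNAs best known from the nervous system. They are mmu-miR-9-5p, mmu-miR-124-3p, the miR-128 strands mmu-miR-128-3p and mmu-miR-128-1-5p, mmu-miR-129-5p with its partner strands mmu-miR-129-1-3p and mmu-miR-129-2-3p, mmu-miR-132-3p and mmu-miR-138-5p, where mmu marks mouse and is left out from here on. All 9 were found in the counts table. The set is defined by names alone, but it was put together with earlier results of these data known. Male C57BL/6J mice underwent bile duct ligation (BDL) or sham surgery, blood was taken on day 8, and each group has 6 libraries. In BDL the common bile duct is tied, so that bile backs up and the liver is injured. The series design speaks of 6 animals in each group, while the first digit of the sample code is shared by pairs of libraries within a group, with no key to its meaning. ExoQuick, a precipitation reagent, was used to collect the vesicles. A tissue label of the samples reads liver, but the site label and protocol name vesicles, and all values here are of plasma vesicle RNA. In such a bulk sample, a microRNA carried by fewer vesicles and one present in fewer copies per vesicle cannot be told apart.

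MicroRNAs are short RNAs that guide the silencing machinery to messenger RNAs, mainly through the seed, bases 2 to 8 of the mature strand. miR-124 is the hallmark microRNA of neurons, where it represses the splicing repressor Ptbp1. miR-9 acts in neural progenitors, and miR-128 and miR-129 in the control of neuronal excitability. miR-132 and its neighbour miR-212 are made from 1 precursor transcript and are induced by the transcription factor CREB. miR-138 limits the size of dendritic spines in rat neurons. Several of them, miR-128 and miR-132 among these, are also made outside the nervous system.

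Mature sequences came from RefSeq on GRCm38.p6, which need not be the build behind the counts, and 7 of the 9 members have an entry there. The sequences below are those the results turn on: the 3 members with enough reads for a test, the sister strand miR-212-3p, the antisense name miR-129b-3p, and miR-218-5p and miR-9-5p. Each is written 5′ to 3′ with the seed in capitals.
miR-128-3p: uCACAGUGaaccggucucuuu
miR-129-5p: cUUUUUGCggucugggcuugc
miR-129b-3p: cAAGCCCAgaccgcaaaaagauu
miR-132-3p: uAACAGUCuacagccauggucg
miR-212-3p: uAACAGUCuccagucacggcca
miR-218-5p: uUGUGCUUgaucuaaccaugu
miR-9-5p: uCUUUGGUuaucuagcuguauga
Seeds were compared among the 1679 mouse mature names with a RefSeq sequence, 1623 of which are in the counts table. There the seeds of miR-9-5p, miR-128-3p, miR-129-5p and miR-138-5p are held at bases 2 to 8 by 0 other names. The seed letters of miR-128-3p also stand at bases 3 to 9 of miR-27a-3p and miR-27b-3p. miR-132-3p and miR-212-3p have the same seed and the same base at 17 of 22 positions counted from the 5′ end.

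Where each mature strand lies bears on what its count can say. miR-128-3p is made alike by Mir128-1, in an intron of R3hdm1 at chr1:128202361-128202430 on the plus strand, and by Mir128-2, in an intron of Arpp21 at chr9:112118636-112118711 on the minus strand, so its reads do not name their source. miR-129-5p likewise comes from Mir129-1, which overlaps an exon of the lincRNA Gm3294 at chr6:29022619-29022691 (plus strand), and from Mir129-2, at chr2:94241364-94241453 on the minus strand in an intron of the lincRNA Mir670hg. Mir129b lies over Mir129-2 on the opposite strand for 65 bases, and 20 of the 21 bases of miR-129-5p are complementary to miR-129b-3p; whether the counting used the strand is not given in the sources used here. Mir212 and Mir132 lie 203 bases apart on the plus strand of chromosome 11, at chr11:75173388-75173478 and chr11:75173682-75173747, both in an intron of the non-coding transcript 1700016P03Rik. Stretches of 18 bases of miR-128-3p and miR-132-3p occurred in the spliced transcripts of 0 GENCODE M21 genes other than microRNA genes, and those of miR-129-5p in those of 1, Gm3294. Introns, in which all of these hairpins except Mir129-1 lie, were not searched.

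Libraries held 121003 to 3506914 counts in BDL and 659302 to 2684636 in sham. Levels are given as CPM, counts per 1e6 after trimmed-mean (TMM) scaling of library sizes. Where a name is listed at 0, its limit is taken as 3 counts. BDL 4 was the shallowest library, with a limit of 24 CPM, and BDL 1 the deepest, with a limit of 0.6252 CPM. The protocol mentions no molecular identifiers, so limits and intervals cover counting error only. The code suffix, 24 or 26 at the end of the sample code and of unstated meaning, divides each group into 3 and 3 libraries. BDL 2, 4 and 6, all of suffix 26, held at most 666310 counts each.

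The 9 members differed widely in level. miR-128-3p was the most abundant, with 2125 ± 395.1 CPM in BDL, against 4894 ± 1082 CPM in sham (SD over 6 libraries each), which placed it 27th and 17th by mean level among the 341 names tested. miR-129-5p followed, with 142 ± 56.6 CPM in BDL and 40.5 ± 7.57 CPM in sham. miR-132-3p came next, with 54.6 ± 30.2 CPM in BDL and 17.8 ± 3.46 CPM in sham. This order held inside each library: miR-128-3p exceeded miR-129-5p in all 6 BDL and all 6 sham libraries, and so did miR-129-5p exceed miR-132-3p. miR-132-3p exceeded miR-9-5p in 6 of 6 BDL and 5 of 6 sham libraries. The strands compared are 21 to 23 bases long, so length hardly enters these levels, although the ligation steps of small RNA libraries favour some sequences.

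The comparison of BDL with sham asks which of these microRNAs differ in plasma vesicles once bile flow has stopped. Counts were tested with edgeR's quasi-likelihood test across 341 names with enough reads, and a name counted as changed at a Benjamini-Hochberg adjusted p under 0.05 over all of them. Of the 9 members, 3 had enough reads and 6 did not. Of the 3, 2 were higher in BDL (miR-129-5p and miR-132-3p) and 1 was lower (miR-128-3p). Changes were common in these vesicles: 42.8% of all 341 names passed the threshold, 24.6% higher and 18.2% lower in BDL. The log2 fold changes of the 3 members were -1.20, 1.65 and 1.79, with no common direction, and the median over all names tested was 0.031. For each of the 3, no BDL library overlapped any sham library, as was the case for 21.1% of all names tested. For miR-132-3p this rests on 3 reads in BDL 4. They give 24 CPM, the limit of that library, against 22.1 CPM in the highest sham library.

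**Figure D1:**
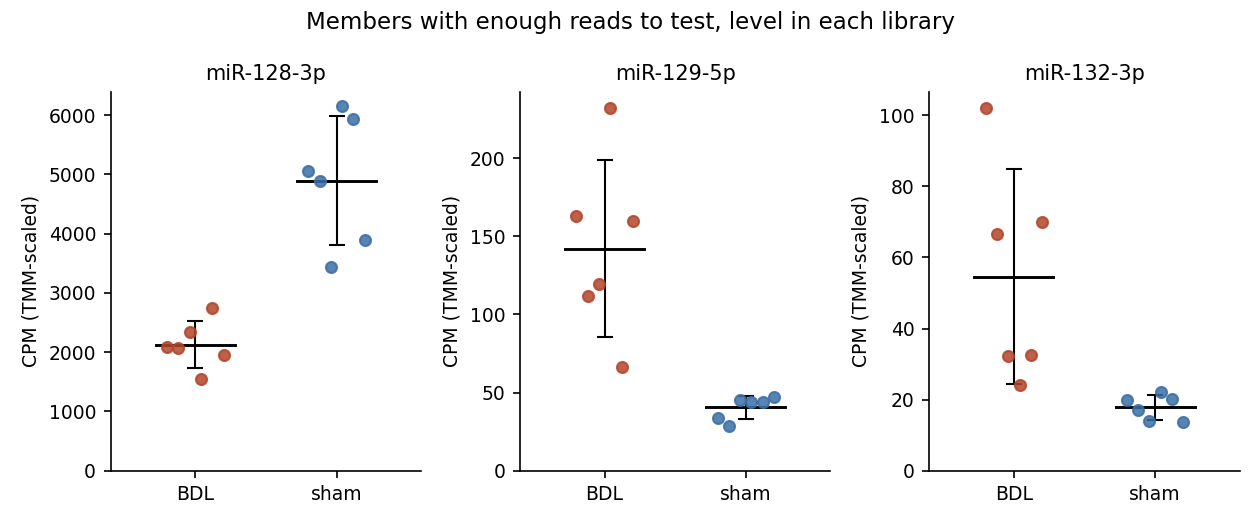
CPM (TMM-scaled, linear axis from 0) of the 3 tested members, one point per library, BDL left and sham right of each panel; the bar is the mean and the whisker 1 SD (n = 6 each). The miR-128-3p points of BDL lie at 1553 to 2738 CPM, below all sham points, while those of miR-129-5p and miR-132-3p lie above all sham points. The lowest BDL point of miR-132-3p, BDL 4, rests on 3 reads.

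miR-128-3p, the guide strand of both miR-128 hairpins, fell in BDL. It had 2092, 2072, 2337, 1553, 2738 and 1956 CPM across BDL 1 to 6, against 5050, 4886, 3432, 6159, 5942 and 3896 CPM across sham 1 to 6. The highest BDL library lay below the lowest sham library. It fell by 1.20 ± 0.23 on the log2 scale (SE; edgeR adjusted p = 0.000573). Its share of all counts was 0.221 ± 0.0591% in the BDL group, against 0.474 ± 0.0932% in the sham group (SD over 6 libraries each). Within code suffix 24 the log2 fold change was -0.98 (adjusted p = 0.0214) and within suffix 26 it was -1.46 (adjusted p = 0.00343), both by edgeR on 3 libraries a group. The difference between the suffixes, 26 minus 24, was -0.41 ± 0.43 (SE), with an adjusted p of 0.6248 (edgeR).

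The partner strands of miR-128-3p, which tell the hairpins apart, were near the limit of detection. miR-128-1-5p, a member, had 4, 0, 2, 0, 0 and 0 counts across BDL 1 to 6, against 4, 3, 2, 2, 2 and 0 across sham 1 to 6. It thus had 6 counts in all BDL libraries together and 13 in all sham libraries. miR-128-2-5p, from the Arpp21 hairpin, had 3 counts in BDL and 3 in sham. At these depths the reads do not show from which hairpin miR-128-3p came in either group.

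miR-129-5p, the guide strand of both miR-129 hairpins, rose in BDL. It had 163, 112, 119, 232, 66.4 and 160 CPM across BDL 1 to 6, against 33.6, 28.5, 45.4, 44.2, 43.9 and 47.3 CPM across sham 1 to 6. BDL 4, with 29 reads of it, was the highest and BDL 5 the lowest of the BDL libraries, and even BDL 5 exceeded every sham library. The sham libraries lay close together. The log2 fold change was 1.79 ± 0.32 (SE; edgeR adjusted p = 0.000377), a 3.45-fold rise. It was 1.54 (adjusted p = 0.00914) within suffix 24 and 2.03 (adjusted p = 0.00365) within suffix 26, by edgeR on 3 libraries a group, and the difference between suffixes was 0.54 ± 0.59 (SE; adjusted p = 0.647).

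A ratio of counts within a library needs no scaling, and miR-129-5p and miR-128-3p moved apart on it too. For each 100 counts of miR-128-3p there were 7.78, 5.39, 5.10, 14.9, 2.43 and 8.18 counts of miR-129-5p across BDL 1 to 6. Across sham 1 to 6 there were 0.666, 0.583, 1.32, 0.718, 0.739 and 1.21. The lowest BDL ratio, in BDL 5, was above the highest sham ratio, in sham 3. The pair was formed with the changes of both names known, so the ratio is a description.

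The 3p strands of miR-129 were rare beside the 5p strand. miR-129-1-3p had 5, 4, 4, 0, 2 and 4 counts across BDL 1 to 6, against 4, 0, 3, 0, 1 and 1 across sham 1 to 6. miR-129-2-3p had 7 counts in BDL and 7 in sham. Together they are few beside the 1381 counts of miR-129-5p in BDL and the 396 in sham. Counts of the antisense names were also low, with 11 counts of miR-129b-3p in BDL and 5 in sham, and 33 counts of miR-129b-5p in BDL and 27 in sham.

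miR-132-3p, which in neurons promotes dendrite growth, rose in BDL. It had 102, 66.6, 32.2, 24, 32.6 and 69.8 CPM across BDL 1 to 6, against 19.8, 17.1, 14.0, 22.1, 20.2 and 13.7 CPM across sham 1 to 6. BDL 1 was the highest. The value of BDL 4 rests on 3 reads and stood closest to the sham range. The log2 fold change was 1.65 ± 0.36 (SE; edgeR adjusted p = 0.00179), a 3.14-fold rise. It was 1.65 (adjusted p = 0.0217) within suffix 24 and 1.63 (adjusted p = 0.0156) within suffix 26, by edgeR on 3 libraries a group. Without BDL 1 it was 1.29.

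The other arm of the miR-132 hairpin, miR-132-5p, did not have enough reads for the main test. It had 44, 2, 21, 0, 4 and 13 counts across BDL 1 to 6, against 14, 12, 3, 8, 4 and 5 across sham 1 to 6. Of 9 arm pairs of the members' hairpins, this was the 1 pair in which both arms averaged at least 10 counts. The log2 ratio of the 3p to the 5p arm was 2.87 ± 0.94 in the BDL group, against 1.95 ± 0.83 in the sham group (SD, n = 6 each). The difference of 0.91 did not pass the threshold (two-sided exact permutation p = 0.102, where the smallest possible p is 0.00216). Without BDL 6 the difference was 1.19 (exact permutation p = 0.0390) and without sham 5 it was 1.16 (exact permutation p = 0.0433).

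miR-212-3p, the seed sister of miR-132-3p, was also higher in most BDL libraries than in any sham library. It is not a member and was singled out after its values were seen. It had 450, 10, 60, 0, 36 and 35 counts across BDL 1 to 6, against 8, 12, 4, 9, 1 and 0 across sham 1 to 6. That is 93.8, 18, 22.5, 0, 23.0 and 64.3 CPM in BDL and 2.77, 4.89, 2.79, 8.65, 0.505 and 0 CPM in sham. BDL libraries 1, 2, 3, 5 and 6 exceeded every sham library, and in BDL 4 the count of 0 leaves room for 24 CPM. It missed the read filter of the main test. With no filter, the log2 difference by edgeR was 3.55 ± 0.52 (SE), with an adjusted p of 1.86e-09 (over 1731 names, of which 7.57% passed the threshold). Without BDL 1, which held most of its BDL counts, it was 2.76 ± 0.55 (SE, edgeR adjusted p = 2.12e-05). The SE and p of these no-filter fits rest mainly on a spread pooled over names. The spread of miR-212-3p itself was wide, from 0 to 93.8 CPM in BDL, so both can be too small. For each 100 counts of miR-132-3p there were 83.8 counts of miR-212-3p in all BDL libraries together and 17.8 in all sham libraries together. By library this ratio was 91.8, 27.0, 69.8, 0, 70.6 and 92.1 across BDL 1 to 6, against 14.0, 28.6, 20, 39.1, 2.5 and 0 across sham 1 to 6, so it was not higher in each BDL library. The other arm, miR-212-5p, had 26 counts in BDL and 21 in sham.

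**Figure D2:**
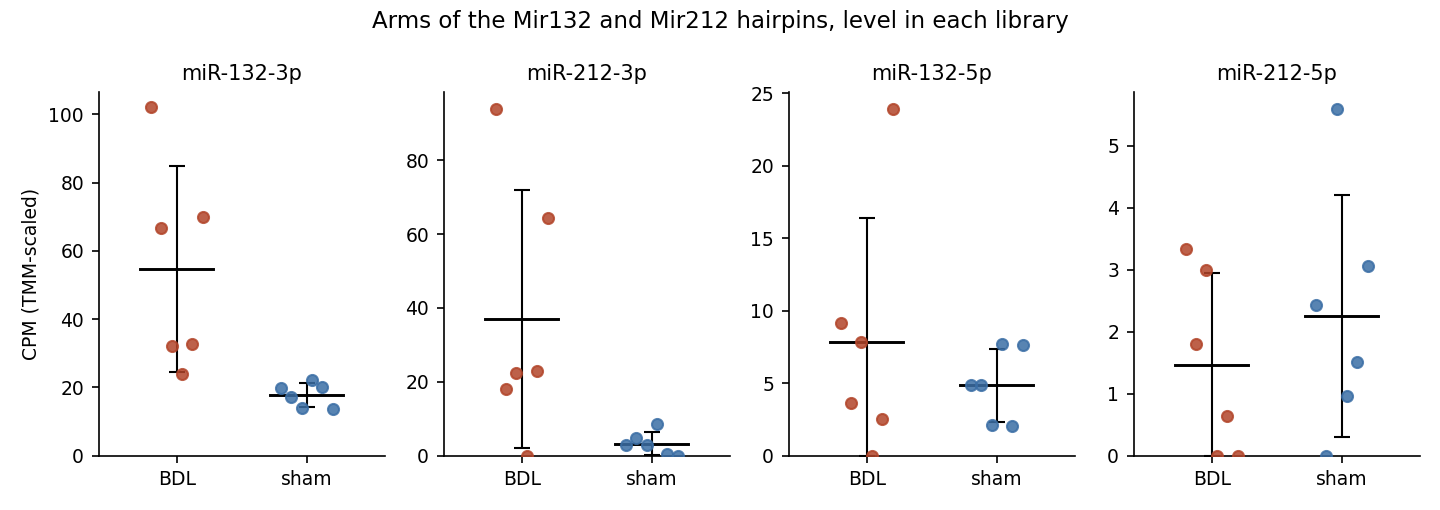
CPM (TMM-scaled, linear axes from 0 that differ between panels) of the 4 arms of the Mir132 and Mir212 hairpins, one point per library, BDL left and sham right; the bar is the mean and the whisker 1 SD, cut at 0 (n = 6 each). The 3p arms are higher in BDL, except that BDL 4 has 0 CPM of miR-212-3p, while both 5p arms overlap between the groups.

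The 6 remaining members were seen in few reads, 102 in all BDL libraries together and 199 in all sham libraries. miR-9-5p had the most, with 15, 9, 13, 1, 20 and 4 counts across BDL 1 to 6, against 10, 119, 2, 12, 5 and 1 across sham 1 to 6. Of its 149 sham counts 119 came from sham 2, where it reached 48.5 CPM, against 1.396 to 11.5 CPM in the other sham libraries and 3.13 to 16.2 CPM in BDL. The groups overlapped. Its partner strand miR-9-3p had 3 counts in BDL and 5 in sham, and sham 2 held 2 of these 5. With no count filter the log2 fold change of miR-9-5p was -0.76 ± 0.54 (SE; edgeR adjusted p = 0.402). Its direction rests on sham 2, without which it was 0.88 ± 0.68 (SE; edgeR adjusted p = 0.451), and the medians were 7.68 CPM in BDL and 3.00 CPM in sham.

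miR-124-3p, the most abundant microRNA of neurons, was barely present. It had 1, 0, 0, 0, 0 and 1 counts across BDL 1 to 6, against 3, 2, 1, 0, 0 and 0 across sham 1 to 6. In all libraries of a group together that is 0.226 per 1e6 counts in BDL (95% exact Poisson interval 0.0274 to 0.818) and 0.573 in sham (0.21 to 1.25). Its partner strand miR-124-5p had 0 counts in BDL, which allows up to 0.34 per 1e6 counts, and 6 in sham. A difference of miR-124 between the groups was not detectable at this depth.

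miR-138-5p, made by hairpins on chromosomes 8 and 9, had 3, 1, 2, 0, 0 and 0 counts across BDL 1 to 6, against 7, 3, 3, 0, 2 and 0 across sham 1 to 6. In all, that is 0.679 per 1e6 counts in BDL (95% exact Poisson interval 0.249 to 1.48) and 1.43 in sham (0.801 to 2.36). These intervals overlap. The strands that tell its hairpins apart were as rare: miR-138-1-3p had 3 counts in BDL and 8 in sham, and miR-138-2-3p had 15 in BDL and 1 in sham. With no count filter the log2 fold change of miR-138-2-3p was 3.52 ± 1.23 (SE; edgeR adjusted p = 0.0524), and none of the 6 members without enough reads passed the threshold, with adjusted p from 0.324 to 0.984.

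**Figure D3:**
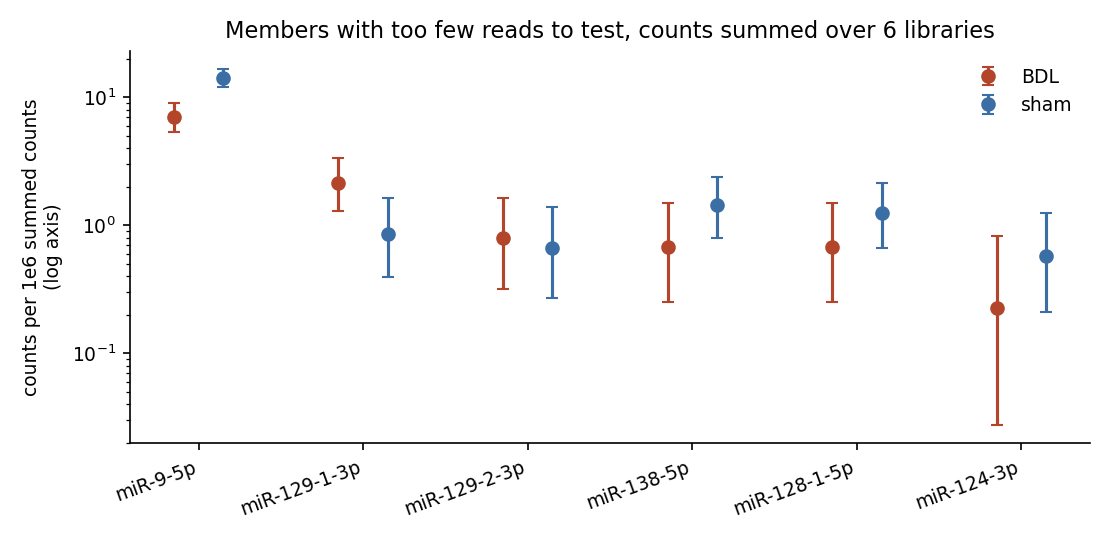
Counts per 1e6 summed counts (log axis) of the 6 members with too few reads for a test, counts summed over the 6 libraries of a group, BDL left and sham right of each name; whiskers are 95% exact Poisson intervals, which cover counting error only. For 5 of the 6 the intervals of BDL and sham overlap, and 119 of the 149 sham counts of miR-9-5p came from 1 library.

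Among other microRNAs known from nervous tissue, few could be tested. A further list of 26 such names held 25 that are in the table, of which 6 had enough reads for the test. Of these 6, 0 were higher, 1 was lower and 5 did not pass the threshold, where 24.6% of all names tested were higher and 18.2% lower. The 6 had a median log2 fold change of 0.0054, against 0.031 over all names tested. At an unadjusted p under 0.05 the same 1 of 6 was found, and with DESeq2 likewise 1. With limma-voom and without BDL 4, 2 of the 6 were lower, and within suffix 26, where 5 could be tested, 1 was higher and 1 lower. The further list and the members were not compared by a test. The other 19 had too few reads, and so did the 6 partner strands of the members' hairpins that are not members.

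miR-218-5p, which marks motor neurons and is also made elsewhere, from introns of the axon guidance genes Slit2 and Slit3, was the 1 that fell. It had 22.9, 16.2, 12.4, 8.00, 11.5 and 14.7 CPM across BDL 1 to 6, against 55.5, 55.8, 39.1, 51.9, 36.8 and 39.7 CPM across sham 1 to 6. The value of BDL 4 rests on 1 read, and those of BDL 2 and BDL 6 on 9 and 8 reads. The groups did not overlap. It fell by 1.62 ± 0.31 on the log2 scale (SE; edgeR adjusted p = 0.000605). The most abundant 2 of the list, miR-139-5p and miR-149-5p, from introns of Pde2a and Gpc1, had log2 fold changes of 0.28 ± 0.25 (adjusted p = 0.408) and -0.17 ± 0.29 (adjusted p = 0.681).

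miR-7a-5p, of hypothalamus, pituitary and islets, had 57.5, 54.0, 121, 376, 50.5 and 42.3 CPM across BDL 1 to 6, against 149, 182, 170, 125, 131 and 139 CPM across sham 1 to 6. BDL 4 stood far above the other BDL libraries, which all lay below the sham range. The log2 fold change was -0.48 ± 0.47 (SE; edgeR adjusted p = 0.445), without BDL 4 it was -1.22 (edgeR adjusted p = 0.00513) and with limma-voom -1.01 (adjusted p = 0.0351). miR-219a-5p, of myelin-forming oligodendrocytes, had 15, 17, 11, 6, 9 and 13 counts across BDL 1 to 6, against 20, 17, 13, 9, 12 and 11 across sham 1 to 6. These counts hardly followed the depth of the libraries. Scaled to depth, its log2 fold change was 0.71 ± 0.63 (SE; edgeR adjusted p = 0.393), with -0.77 (adjusted p = 0.318) within suffix 24. Within suffix 26 it was 1.58 and passed the threshold (edgeR adjusted p = 0.0471), and the test of the difference between suffixes gave an adjusted p of 0.0622 (edgeR).

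**Figure D4:**
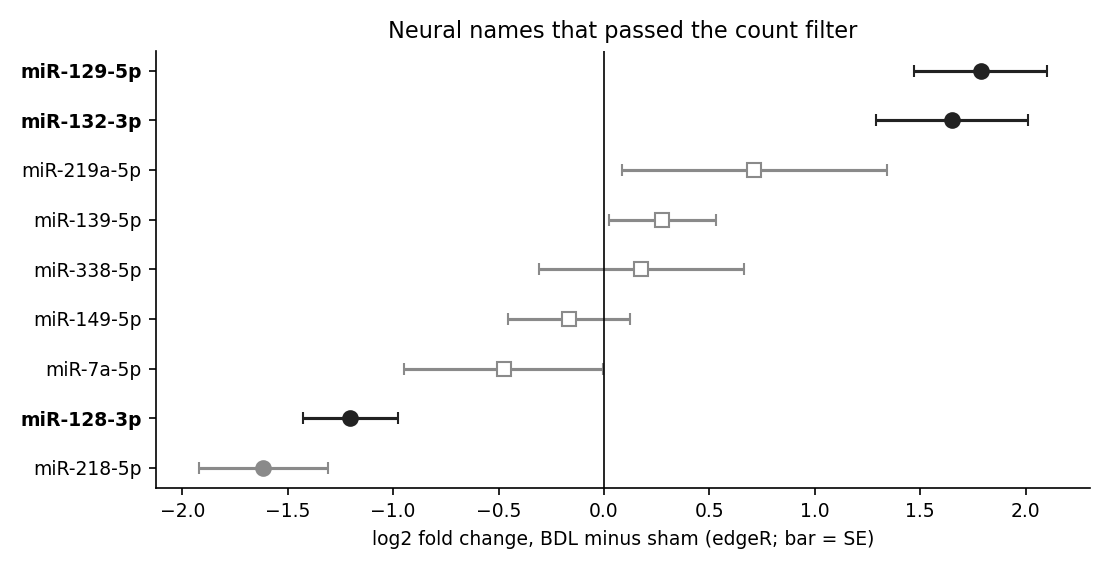
Log2 fold change, BDL minus sham, with its SE (whisker) for the 9 neural names with enough reads; members are in black with bold names, names of the further list in grey, and filled circles passed the threshold. miR-129-5p (1.79) and miR-132-3p (1.65) lie right of 0, miR-128-3p (-1.20) and miR-218-5p (-1.62) left of it, and the other 5 did not pass.

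Of the names listed for neurons, miR-124-3p, miR-9-3p and miR-137-3p stood near 0, while miR-9-5p reached 48.5 CPM in sham 2. The names miR-124-3p, miR-9-5p, miR-9-3p and miR-137-3p, 0 of which had enough reads for the test, together reached 3.33 to 16.2 CPM in BDL libraries and 1.53 to 50.5 CPM in sham libraries, most of it miR-9-5p. Markers of some other sources moved with the groups and those of others did not. All 3 hepatocyte names were higher, with a summed level of 74609 to 328182 CPM in BDL and 3852 to 25103 CPM in sham. Of 4 erythroid names 0 were higher and 2 were lower, miR-451a (means of 1595 CPM in BDL and 9909 CPM in sham) and miR-16-5p (53.9 and 235 CPM). The summed level was 124284 to 378010 CPM in BDL and 356654 to 553139 CPM in sham. Nearly all of it was miR-486a-5p, which did not pass (edgeR adjusted p = 0.162). Both names listed for lymphocytes, miR-150-5p and miR-142a-5p, were lower, with 516.6 to 2102 CPM in BDL and 2764 to 6291 CPM in sham. Most of this sum was miR-142a-5p, with means of 919.6 CPM in BDL and 3450 CPM in sham. A further blood leukocyte name, miR-223-3p, was listed with platelets and endothelium and did not pass (log2 fold change -0.58, edgeR adjusted p = 0.362). Of 3 platelet and endothelium names 1 was higher (miR-24-3p), 1 lower (miR-126a-3p) and 1 (miR-223-3p) did not pass. Their summed levels overlapped, with 5091 to 16369 CPM in BDL and 7473 to 12110 CPM in sham, but this sum joins opposite changes. Means of miR-24-3p were 8144 CPM in BDL and 3920 CPM in sham, and those of miR-126a-3p 1435 and 4990 CPM. Of 3 oligodendrocyte names 1 could be tested, miR-219a-5p above, which did not pass, and the sum was 4.79 to 64.0 CPM in BDL and 7.07 to 21.4 CPM in sham. Of both endocrine names, miR-375-3p was lower, with a log2 fold change of -0.73 (edgeR adjusted p = 0.0148), and miR-7a-5p did not pass; the sum was 315 to 680.4 CPM in BDL and 525 to 798 CPM in sham. The part of these sources in the changes of the neural names was not tested.

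The 3 tested members varied in different ways among libraries of one group. Over the 12 libraries, deviations of log2 CPM from the group means had a Pearson coefficient of -0.60 between miR-128-3p and miR-129-5p, 0.27 between miR-128-3p and miR-132-3p, and 0.036 between miR-129-5p and miR-132-3p. All names of a library share its depth and scaling, so these coefficients are descriptions. The names most like miR-132-3p by this measure were miR-326-3p (0.88) and miR-218-5p (0.85), the first of which was higher in BDL and the second lower. Those most like miR-129-5p were miR-1964-3p (0.73) and miR-151-3p (0.70), and those most like miR-128-3p were miR-6967-3p (0.73) and miR-5132-5p (0.71). Each was picked as highest among all tested names, so its coefficient can be high by selection alone. The last 2 were scarce, with BDL means of 8.00 and 12.2 CPM, below the 24 CPM limit of BDL 4. In BDL 4, miR-218-5p had 1 read and miR-132-3p 3 reads.

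**Figure D5:**
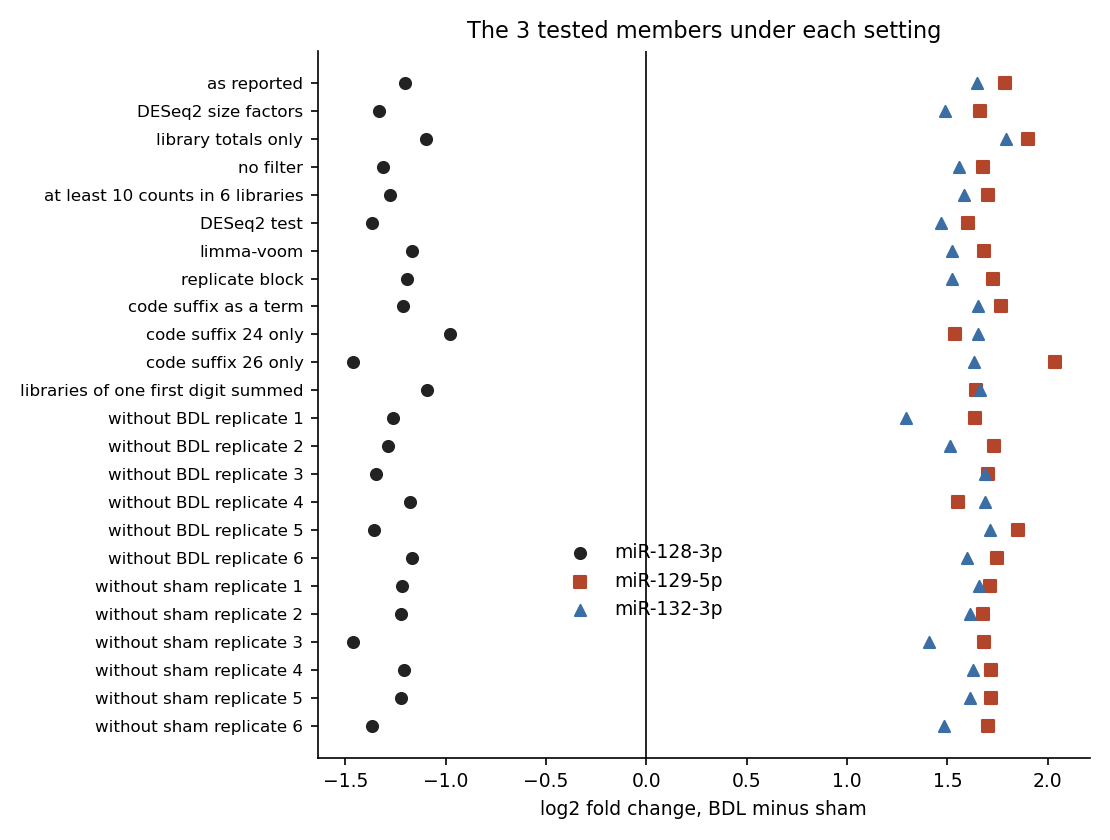
Log2 fold change, BDL minus sham, of the 3 tested members (horizontal axis) as reported and under 23 other settings of the analysis (vertical axis), one marker per member. miR-128-3p stays left of 0, at -1.46 to -0.98, and miR-129-5p (1.54 to 2.03) and miR-132-3p (1.29 to 1.79) stay right of it.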

How the data were processed

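Small RNA from plasma vesicles of 6 BDL and 6 sham samples was sequenced. The authors deposited raw counts per mature microRNA name. The submitters' processing notes name cutadapt and STAR; their versions, the build, the annotation and the counting rule are not stated there. Per the labels' protocols, libraries were made from 40 ng of RNA with 15 PCR cycles. The 67 names of other prefixes, at most 0.00786% of a library's counts, were left out. Counts were tested with edgeR 4.0.16 (R 4.3.3) quasi-likelihood, TMM, its filter by group and Benjamini-Hochberg adjustment over 341 names. The SE is taken from the fold change and its F statistic. Log2 CPM has a prior count of 2 and arm ratios a pseudocount of 0.5. limma 3.58.1 (voom), DESeq2 1.42.0 and other settings are given in the closing section.

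P-values measure the spread between libraries, treated as separate samples. Those of the edgeR fits with no count filter rest mainly on a spread pooled over names, and can be too small for a name that varies more. No 2 libraries of 1 group agreed within sampling noise. Members, lists and ratios were chosen with earlier results of these data known. Named names were the members, their partner strands, the listed neural names past the threshold or among the 2 most abundant, and the 2 most like each tested member. No-filter fits that leave out 1 library were added after seeing the data. miR-212-3p, miR-7a-5p, miR-219a-5p, the antisense miR-129b names and those sharing seed letters were named after their values were seen. The replicate number, which labels share between groups, was used as a block in an alternative fit.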

Additional observations from a re-analysis of the deposited data

Results flagged for a closer look

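In 20 groups of 6 values examined (the 9 members and 1 arm ratio in BDL and in sham), 2 contained an isolated library. By chance about 1 group in 20 does where values are roughly normal. That rate does not hold for groups of counts near 0, and both isolated libraries were in such groups. miR-124-3p in BDL 6 had a log2 CPM of 1.58, apart from the other BDL libraries, and this is 1 read in a shallow library. miR-128-1-5p in sham 6 had a log2 CPM of 0.21, apart from the other sham libraries, and this is a count of 0.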

How the results depend on the processing

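The log2 fold changes of miR-128-3p, miR-129-5p and miR-132-3p kept their direction and stayed past the threshold under all 23 other settings, at -1.46 to -0.98, 1.54 to 2.03 and 1.29 to 1.79; leaving out 1 library gave -1.46 to -1.17, 1.55 to 1.85 and 1.29 to 1.71. DESeq2 size factors moved the median of all names by -0.14 (log2). Over all names 84 were higher and 62 lower; within suffix 26, with 265 names tested, 54 were higher. Leaving out 1 library gave 65 to 89 higher and 54 to 70 lower. With the sample number as a replicate block, 72 were higher and 61 lower, and miR-128-3p, miR-129-5p and miR-132-3p had -1.19, 1.73 and 1.52. Same-numbered libraries correlated at -0.0886 to 0.311 (over 0.1 in 2 of 6 pairs), and 5 of 12 libraries correlated best with their own number. These values do not settle whether the numbers are pairs. The labels state no pairing, so the main fit took none. With the 2 libraries of each first digit summed (3 sums a group), the 3 members had -1.09, 1.64 and 1.66, all past the threshold by edgeR. The arm ratio of miR-132 ran from 0.68 to 1.19 when 1 library was left out.

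Among names not past the threshold, miR-219a-5p turned to -0.77 within suffix 24 and -0.13 with first digits summed. miR-338-5p turned to -0.021 with DESeq2, -0.28 without BDL 1, -0.075 without sham 3 and -0.072 without sham 6 (up to 0.40 when another library was left out). miR-139-5p turned to -0.046 within suffix 26. miR-7a-5p passed with limma-voom (-1.01) and without BDL 4 (-1.22), and miR-219a-5p within suffix 26 (1.58). With no filter and 1 library left out, settings added after seeing the data, miR-9-5p turned to 0.88 without sham 2 and in no other of the 12 fits (edgeR adjusted p from 0.284 to 0.544), and miR-212-3p had 2.76 to 3.94, past the threshold in all 12. The cause was not tested. Depth limits miR-124-3p, miR-138-5p and the partner strands, and BDL 4 most of all libraries.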
